A study of Danio rerio with 12 samples.

Results

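Double mutant larvae, homozygous for deletion alleles of both mda5 and zbtb24 (mda5 mk29/mk29;zbtb24 mk22/mk22), were compared with WT larvae to find which transcripts stayed changed when both genes were lost. The comparison used 3 double mutant and 3 WT libraries, chosen by their genotype labels alone, which are 6 of the 12 libraries in the series. The other libraries were 3 of zbtb24 mutants (zbtb24 mk22/mk22) and 3 of mda5 mutants (mda5 mk29/mk29), and they entered the fit so that the 4 genotypes shared an estimate of the spread. Every library held polyadenylated RNA of a pool of 10 larvae at 3 weeks of age, so p-values measure the spread between 3 pools per genotype. Both mutations were germline alleles, present in all tissues of the animal.

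Expression is given as FPKM, the fragments assigned to a gene scaled by the length of the gene and by library size. The authors also scaled these values across the 12 libraries. A change is a difference of genotype means on the scale log2(FPKM + 0.5), which understates the change of low genes, and a gene passed the test where its Benjamini-Hochberg adjusted p from limma was under 0.05. The fragments per library are not known from FPKM, and the 4 most abundant features held 84.2 to 89.9% of the summed FPKM of each library. The source label names fin, whereas the study design describes whole larvae. In the double mutants the pancreatic protease gene prss1 ranged from 5662 to 7171 FPKM and the liver gene fabp10a from 2086 to 3185 FPKM. Transcripts of pancreas and liver were thus present in these libraries.

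Zbtb24 is a zinc finger protein whose human counterpart is mutated in a form of ICF syndrome (immunodeficiency, centromeric instability and facial anomalies), in which repeated DNA near centromeres loses methylation. CDCA7 and HELLS are further ICF genes, and their proteins work together in remodelling nucleosomes so that DNA can be methylated. Mda5, encoded by ifih1, is a cytosolic sensor of long double-stranded RNA that signals through Mavs to induce interferon and interferon-stimulated genes.

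The FPKM of ZBTB24 and IFIH1 could not check the genotypes. CDCA7, described below, separated the libraries by their zbtb24 labels. The study had already reported an almost complete loss of cdca7 in zbtb24 mutants from these RNA-seq data, so CDCA7 is no independent check. ENSDARG00000082123 separated the libraries by their mda5 labels, but it was picked for its values and is therefore no check of these labels. The study reported no detectable zbtb24 transcript in homozygous mutants by qRT-PCR at an earlier age. ZBTB24 (ENSDARG00000075533) stood at 1.4, 1.23 and 1.47 FPKM in double mutants and 1.74, 1.4 and 1.06 FPKM in zbtb24 mutants, against 0.348, 0.51 and 0.587 FPKM in WT. It was higher in double mutants than in WT by 0.93 on the log2 scale (SE 0.15, adjusted p = 0.0354), and this call was lost in 10 of the 12 fits with 1 library left out (up to adjusted p = 0.101). A gene-level value sums all exons, including those outside the deleted part, so it says nothing about whether the deletion is present. IFIH1 (ENSDARG00000018553) stood at 0.573, 0.559 and 0.381 FPKM in double mutants and 0.354, 0.613 and 0.493 FPKM in mda5 mutants. In zbtb24 mutants it stood at 1.35, 1.87 and 1.54 FPKM, and WT libraries had 0.751, 0.732 and 0.82 FPKM. Its change in double mutants against WT was -0.34 (SE 0.15) and missed the threshold (adjusted p = 0.409), and a short deletion in its coding sequence would not be visible in FPKM either.

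Of 21623 features tested, 87 passed in double mutants against WT (0.402%), 33 of them higher (0.153%) and 54 lower (0.25%). In all, 2511 features had an unadjusted p under 0.05. The median change of the 33 was 1.32 and that of the 54 was -2.03 on the log2 scale, beside 0.0033 for all features tested. In all 87 the 3 double mutant libraries lay beyond the 3 WT libraries on the same side, which was so for 9.27% of all features above WT and 9.32% below it. The 87 were chosen by this same difference, so neither their medians nor this separation is separate support. In bulk RNA of whole larvae, fewer cells of a type and less RNA per cell cannot be told apart. With a fit of the 6 compared libraries alone 9 features passed, 6 of the 87 among them, and without WT replicate 3 it was 25.

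The largest group among the lower genes was expressed in the lens. Crystallins are the soluble proteins that fill lens fibre cells and give the lens its refractive power, and 23 of the 52 crystallin features tested fell in double mutants, while 1 rose and 28 did not pass. Over all features, 0.25% passed as lower and 0.153% as higher. This list of crystallins was drawn up by symbol after results were seen. Its median change was -1.83 on the log2 scale, beside 0.0033 for all features, and in 43 of the 52 all double mutant libraries lay below all WT libraries, beside 9.32% of all features. Another 19 lens features, listed in the same way, include gap junction, membrane and beaded filament proteins of fibre cells. Of these 8 fell, none rose, and their median was -1.55.

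Among features with a symbol, the largest falls were in gamma-M crystallins, a family of fish lenses. The gene crygm2e (ENSDARG00000044875) stood at 2.54, 17.1 and 18.4 FPKM in double mutants, against 772, 529 and 663 FPKM in WT. All 3 double mutant libraries lay far below the lowest WT library, and the fall was 6.01 on the log2 scale (SE 0.58, adjusted p = 0.00156). Its neighbour crygm2a (ENSDARG00000057536) stood at 5.8, 19.2 and 18.8 FPKM in double mutants, against 845, 669 and 847 FPKM in WT, a log2 change of -5.87 (SE 0.50, adjusted p = 0.000886). Double mutant replicate 1 was the lowest library for both genes. For crygm6 (ENSDARG00000040735) the levels were 1.73, 4.52 and 1.53 FPKM in double mutants and 49.8, 125 and 104 FPKM in WT. WT replicate 1 was the lowest of its group there. The fall of 4.94 missed the threshold in 4 of the 12 fits with 1 library left out. The highest adjusted p (0.09) came without WT replicate 3. With the 6 compared libraries alone crygm6 missed it as well (adjusted p = 0.0545). The gamma-M crystallins crygm2f, crygm7, crygm1, crygm3, crygm5 and crygmxl1 fell by between 2.53 and 3.83 on the log2 scale.

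Beta crystallins fell as well. CRYBB2 (ENSDARG00000053512) stood at 2.59, 3.43 and 4.85 FPKM in double mutants, against 145, 132 and 174 FPKM in WT, and fell by 5.22 on the log2 scale (SE 0.38, adjusted p = 0.000284). It was among the 9 features that passed with the 6 compared libraries alone (adjusted p = 0.00148). CRYBA1 (ENSDARG00000041141) stood at 0.623, 1.2 and 3.19 FPKM in double mutants, against 26.1, 26 and 36.3 FPKM in WT, a log2 change of -3.95 (SE 0.35). CRYBA2 (ENSDARG00000041925), with 62, 163 and 196 FPKM in double mutants and 844, 508 and 777 FPKM in WT, fell by 2.46, and its other copy (ENSDARG00000030349) changed by -1.72 without passing (adjusted p = 0.0594). The alpha crystallin CRYAA, a small heat shock protein of the lens, stood at 9.73, 24.8 and 27.8 FPKM in double mutants, against 107, 68.4 and 81.4 FPKM in WT (adjusted p = 0.0461). CRYAA was named after its values were seen.

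One crystallin copy went the other way. CRYGS (ENSDARG00000042992) rose to 7.09, 15.4 and 5.22 FPKM in double mutants, against 0.629, 1.45 and 0.853 FPKM in WT, a log2 change of 2.62 (SE 0.43, adjusted p = 0.032). Its call was lost in 8 of the 12 fits with 1 library left out. A second feature with the same symbol (ENSDARG00000041171) overlapped between the genotypes, with 8.58, 18.1 and 9.14 FPKM in double mutants and 6.96, 15.2 and 16.2 FPKM in WT. Crystallin copies are close in sequence, so fragments may have been divided between them by the authors' estimation, and values of single copies are less certain than the direction of the group.

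**Figure D1:**
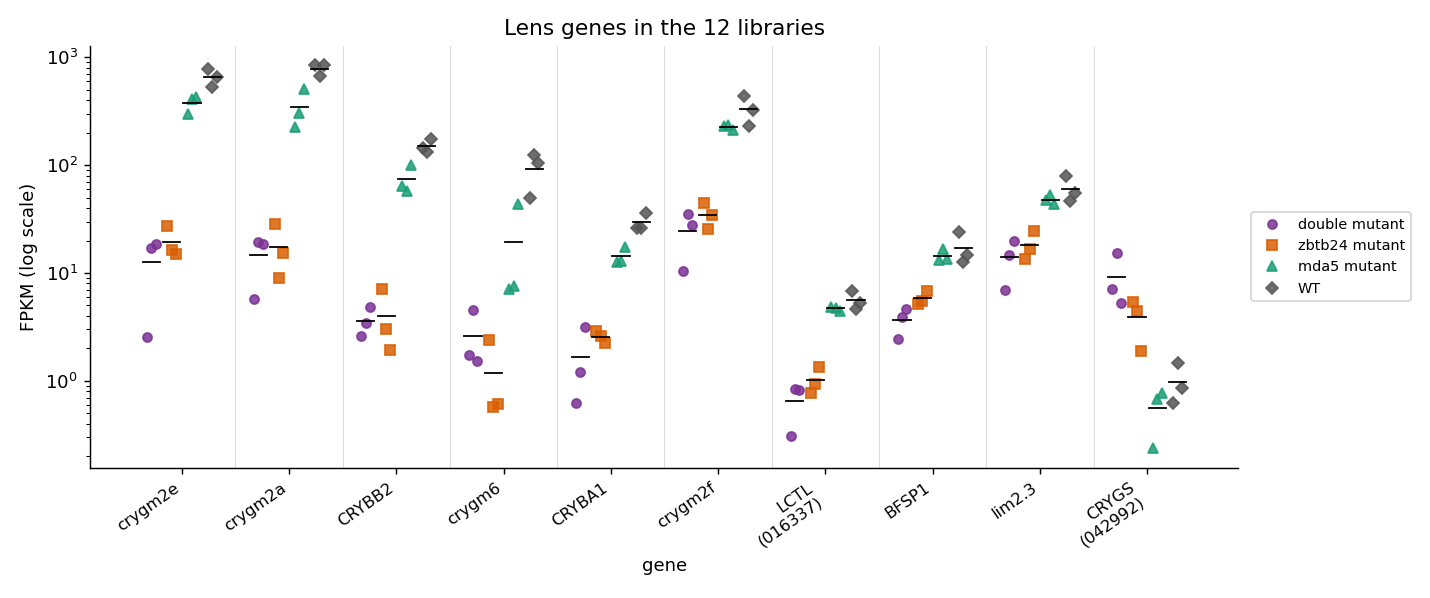
FPKM of 10 lens features on a log axis, with each of the 12 libraries as a point and the mean of the 3 libraries of a genotype as a bar, in the order double mutant, zbtb24 mutant, mda5 mutant and WT. The double mutant points of the first 9 features lie below their WT points, with those of crygm2e between 2.54 and 18.4 FPKM, and CRYGS (ENSDARG00000042992) is higher in double mutants.

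Lens genes outside the crystallin family were chosen for description after their values were seen. The klotho family gene LCTL, known from lens, was present as a pair of features, and the first (ENSDARG00000016337) stood at 0.308, 0.838 and 0.822 FPKM in double mutants, against 6.85, 4.68 and 5.29 FPKM in WT, a log2 change of -2.42 (adjusted p = 0.000893). BFSP1, a beaded filament protein of the lens fibre cell skeleton, stood at 2.46, 3.9 and 4.68 FPKM in double mutants, against 24.2, 12.7 and 14.7 FPKM in WT (log2 change -2.06, adjusted p = 0.00749). The lens membrane protein gene lim2.3 stood at 7.01, 14.8 and 19.9 FPKM in double mutants and 79.3, 46.1 and 55 FPKM in WT. The connexin gene GJA3, whose protein forms gap junctions between lens fibres, fell by 1.06. LGSN, dnase1l1l, which encodes a nuclease, and the second LCTL feature were also among the 8. The first LCTL feature and BFSP1 were the members of the 8 that passed with any 1 library left out. The lens transcription factor foxe3 had levels that overlapped, with 0.517, 0.84 and 0.641 FPKM in double mutants and 0.56, 0.436 and 0.477 FPKM in WT, and a change of 0.23 (adjusted p = 0.618).

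The lens genes in the single mutants are given side by side, since both single mutants share their WT libraries with the double mutants. CRYBB2, given above for double mutants and WT, was at 7.13, 3.04 and 1.92 FPKM in zbtb24 mutants. In mda5 mutants it was at 63.7, 58.1 and 101 FPKM, all below the lowest WT library. Crystallins had a median change of -1.83 in double mutants against WT, -1.38 in zbtb24 mutants against WT and -0.31 in mda5 mutants against WT. Against mda5 mutants, a comparison that holds no WT library, the double mutants had a median change of -1.60 over the crystallins, and crygm2e fell by 5.22 (adjusted p = 0.00496). Double mutants against zbtb24 mutants had a median of -0.47, and no crystallin passed (limma), while 2 of 52 had an unadjusted p under 0.05, beside 3109 of 21623 features.

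The count of lens genes depended on single libraries. Of the 52 crystallins, 7 fell without WT replicate 3, 10 without WT replicate 1 and at most 18, without zbtb24 replicate 3. The 7 that fell with any 1 library left out were crygm2e, crygm2a, CRYBB2, CRYBA1, crygm2f, crygm5 and crybb1l3, and with the 6 compared libraries alone only crygm2a and CRYBB2 passed. Summed over the 52 crystallin features tested, levels were 2062, 5086 and 5395 FPKM in double mutants and 19981, 11272 and 17619.6 FPKM in WT. Double mutant replicate 1 was lowest and WT replicate 2 lowest of its group. Markers of the retina, the 44 phototransduction genes tested, had a median change of -0.08 with 0 lower and 1 higher, the carrier gene rbp4l described among the higher genes. Of the 44, 13 had an unadjusted p under 0.05, 9 of them lower, beside 2511 of 21623 features. Against mda5 mutants, the double mutants had a median of -0.51 over these genes. There 34 changes were below 0 and 10 above, and no gene passed. In zbtb24 mutants against WT the median was -0.56, with 11 lower and 2 higher. Of all features, 6.65% passed as lower and 4.92% as higher there. The median of mda5 mutants against WT was 0.38.

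Many of the lower lens genes are neighbours. Among 65 genes that passed and could be placed by a unique symbol in the RefSeq gene table of the GRCz12tu assembly, 13 pairs were directly adjacent, and both members of each of the 13 changed in the same direction. Not all of the 13 are lens pairs, since irg1l and its neighbours, jac9 with jac8, and spink2.2 with spink2.7 are among them. The genes ntrnl4 and jac9, with 2 genes between them, changed in opposite directions. The run of crygm6, si:dkey-57a22.15, crygm1 and zgc:153846 was uninterrupted, as was that of crygm2f, crygm5, crygm3 and crygs4. The feature zgc:153846 (ENSDARG00000040738), which has no crystallin symbol but lies in that run, stood at 28.4, 146 and 157 FPKM in double mutants, against 889, 584 and 782 FPKM in WT. It fell by 3.09 (SE 0.53, adjusted p = 0.0418), and did not pass in 10 of the 12 fits with 1 library left out. The feature si:ch211-255g12.6 (ENSDARG00000094310), with no role annotated in the sources used here, fell by 2.80 (adjusted p = 0.0115).

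Outside the lens, the fall with the lowest adjusted p among features with a symbol was that of CDCA7 (ENSDARG00000077620), a known target of ZBTB24 in human and mouse cells and itself an ICF gene. It stood at 0.0445, 0.0587 and 0.101 FPKM in double mutants, against 3.48, 2.56 and 3.17 FPKM in WT. The double mutants were all close to 0, and the change of -2.64 on the log2 scale (SE 0.13, adjusted p = 7.17e-06) is bounded by the added 0.5. The zbtb24 mutants, at 0.0118, 0.0676 and 0.0665 FPKM, were as low, and the mda5 mutants were at 2.6, 2.83 and 2.53 FPKM. Double mutants were lower than mda5 mutants (adjusted p = 2.87e-05), and against zbtb24 mutants the difference was 0.05 (adjusted p = 0.866). CDCA7 passed with any 1 library left out and with the compared libraries alone.

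Of the 16 genes in the list of DNA methylation and ICF genes, CDCA7 fell, ZBTB24 rose and 14 did not pass, with a median of 0.10. Over all features, 0.25% passed as lower and 0.153% as higher. The paralogue cdca7b was at 3.1, 3.56 and 3.52 FPKM in double mutants and 2.75, 1.93 and 2.11 FPKM in WT (log2 change 0.50, adjusted p = 0.305). HELLS, the nucleosome remodeller partner of CDCA7, was at 3.94, 4.18 and 3.1 FPKM in double mutants and 2.66, 2.35 and 2.36 FPKM in WT (adjusted p = 0.174). The maintenance methyltransferase gene DNMT1 was at 6.96, 7.04 and 5.99 FPKM in double mutants and 4.94, 5.11 and 4.4 FPKM in WT (adjusted p = 0.101). All 3 double mutant values of these genes were above all 3 WT values without reaching the threshold. Such a separation above WT held for 5 of the 16 genes, ZBTB24 among them, beside 9.27% of all features.

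Components of RNA polymerase II initiation changed in both directions, and they were grouped after their values were seen. TAF6 (ENSDARG00000102998), a subunit of the general transcription factor TFIID, stood at 2.42, 3.05 and 3.1 FPKM in double mutants, against 8.39, 8.002 and 8.23 FPKM in WT. It fell by 1.38 on the log2 scale (SE 0.11, adjusted p = 0.000824) and passed with any 1 library left out. POLR2A (ENSDARG00000099966), the largest subunit of RNA polymerase II, rose to 44, 43.8 and 38.8 FPKM in double mutants, against 22.4, 21.5 and 20.4 FPKM in WT (log2 change 0.96, SE 0.09, adjusted p = 0.00156). Its 3 double mutant libraries differed from each other by far less than they did from WT.

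The gene GTF2A1, which encodes a TFIIA subunit, was at 19.9, 21.6 and 20.7 FPKM in double mutants and 12.2, 13.7 and 14.9 FPKM in WT (log2 change 0.59, adjusted p = 0.0256). The TFIID subunit gene taf4a was at 4.66, 4.33 and 4.48 FPKM in double mutants and 2.72, 3.08 and 3.12 FPKM in WT (log2 change 0.52, adjusted p = 0.0366). Of 48 genes of this machinery tested, 3 rose, 1 fell and 44 did not pass, and the median was -0.03. Over all features, 0.153% passed as higher and 0.25% as lower. In zbtb24 mutants against WT 3 of the 48 rose and 5 fell, where 4.92% of all features passed as higher and 6.65% as lower. In double mutants against mda5 mutants 2 rose and 1 fell, where 0.0509% passed as higher and 0.0832% as lower. Calls of taf4a and GTF2A1 were lost in 11 and 7 of the 12 fits with 1 library left out, up to adjusted p = 0.119 and 0.0859.

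The bromodomain gene brdt, whose mouse counterpart acts in spermatogenesis, rose to 14.4, 16.5 and 14.6 FPKM in double mutants, against 9.38, 8.71 and 8.49 FPKM in WT (log2 change 0.74, adjusted p = 0.00569). ZNF687, a zinc finger gene, stood at 0.986, 1.4 and 1.64 FPKM in double mutants, against 3.43, 4.03 and 3.41 FPKM in WT (log2 change -1.18, adjusted p = 0.00526). Both, named after their values were seen, also passed in double mutants against mda5 mutants, with adjusted p of 0.00662 for brdt and 0.00354 for ZNF687. In that comparison 29 features passed (0.134%), 11 of them higher (0.0509%) and 18 lower (0.0832%), and 26 of the 87 were among them with the same direction.

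**Figure D2:**
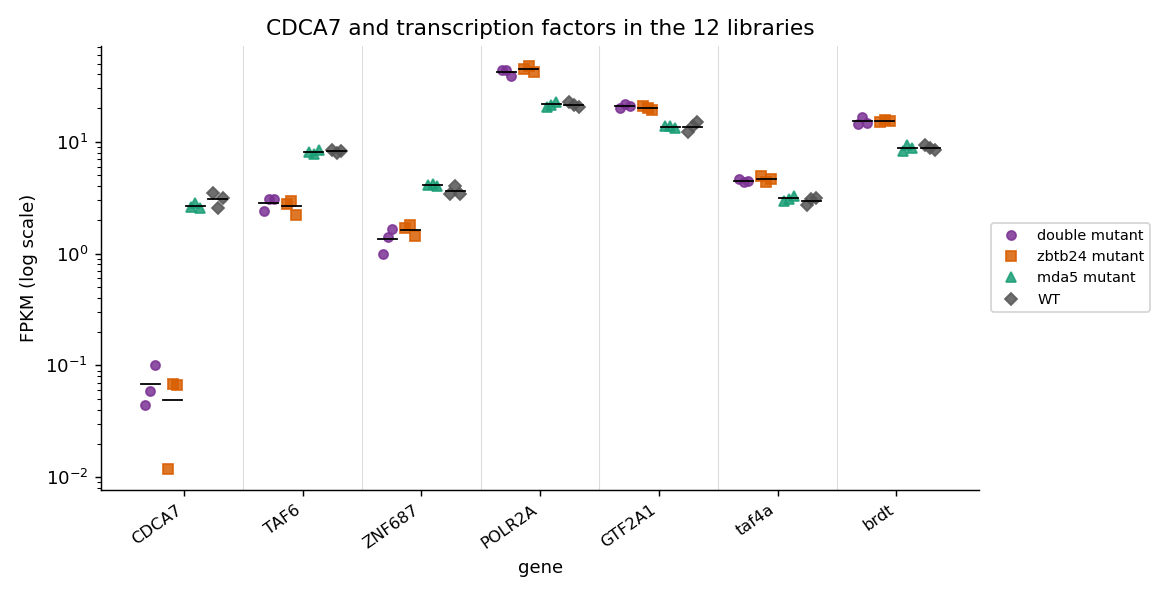
FPKM on a log axis of 7 genes that passed in double mutants against WT, with each library as a point and the genotype mean as a bar, in the order double mutant, zbtb24 mutant, mda5 mutant and WT. CDCA7, TAF6 and ZNF687 are low in double mutants, and POLR2A lies between 38.8 and 44.0 FPKM there and between 20.4 and 22.4 FPKM in WT.

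Of the 6 largest rises, 4 were in a block of adjacent genes, and the others were CRYGS and a feature with no symbol (ENSDARG00000105472, log2 change 2.66). The gene irg1l (ENSDARG00000062788), related to the mammalian gene of the itaconate-producing enzyme, stood at 33.3, 49.2 and 41.1 FPKM in double mutants, against 8.55, 3.02 and 5.82 FPKM in WT. It rose by 2.81 on the log2 scale (SE 0.41, adjusted p = 0.0198). The next 3 genes along the chromosome are si:ch211-153b23.3, si:ch211-153b23.4 and si:ch211-153b23.5, whose roles are not annotated in the sources used here, and all 3 rose.

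The most abundant of them was si:ch211-153b23.5 (ENSDARG00000058206), with 239, 133 and 226 FPKM in double mutants and 37.2, 20.8 and 30.9 FPKM in WT, a log2 change of 2.72 (SE 0.48, adjusted p = 0.0453). Levels of si:ch211-153b23.3 (ENSDARG00000104919) were 13.4, 16.1 and 16.6 FPKM in double mutants and 2.68, 0.829 and 1.86 FPKM in WT, the highest log2 change of the 87 at 2.87. For si:ch211-153b23.4 (ENSDARG00000077169) they were 18, 14.3 and 17.9 FPKM in double mutants and 4.42, 1.64 and 2.38 FPKM in WT (log2 change 2.46). The 3 mda5 mutant libraries varied widely at all 4 genes, with irg1l at 7.49, 15.4 and 4.4 FPKM, and the zbtb24 mutants had 64.8, 53 and 51.3 FPKM. The calls of si:ch211-153b23.3, si:ch211-153b23.4 and si:ch211-153b23.5 were lost in 9, 10 and 9 of the 12 fits with 1 library left out. That of irg1l was lost in 4 of them. All 4 calls were lost when double mutant replicate 2 or 3, or WT replicate 2 or 3, was left out alone. They were also lost with the compared libraries alone and with a replicate block. Without WT replicate 3 the adjusted p of irg1l was 0.0913.

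A pair of jacalin-like lectin genes, also direct neighbours, rose. In jac9 (ENSDARG00000074983) the levels were 8.49, 9.97 and 8.73 FPKM in double mutants and 1.78, 1.36 and 2.03 FPKM in WT. The double mutant libraries lay close together, the change was 2.11 on the log2 scale (SE 0.24, adjusted p = 0.00526), and the call was kept with any 1 library left out and with the compared libraries alone. In jac8 (ENSDARG00000076958) the levels were 14.2, 47 and 39.6 FPKM in double mutants and 6.37, 5.03 and 5.98 FPKM in WT (log2 change 2.28, adjusted p = 0.0239), and the call was lost in 5 of the 12 fits with 1 library left out (up to adjusted p = 0.106). Of 7 jacalin-like genes tested, grouped after their values were seen, 2 rose and 5 did not pass, with a median of 1.11. Over all features, 0.153% passed as higher.

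Single genes made up the rest of the 15 highest. The leptin gene lepb (ENSDARG00000045548), which encodes a peptide hormone, stood at 3.0, 5.38 and 2.99 FPKM in double mutants, against 0.443, 0.282 and 0.782 FPKM in WT, a log2 change of 2.08 (adjusted p = 0.0255). The notochord granular surface gene ngs (ENSDARG00000054321) stood at 17, 28.5 and 40.2 FPKM in double mutants, against 5.68, 5.61 and 7.66 FPKM in WT (log2 change 2.02). The carrier gene rbp4l (ENSDARG00000044684), of the retinol-binding protein family, stood at 286, 269 and 189.7 FPKM in double mutants, against 90.3, 82.1 and 117 FPKM in WT (log2 change 1.35, adjusted p = 0.0185). As in all 87, the double mutant and WT libraries of these 3 genes did not overlap. The calls of lepb, ngs and rbp4l were lost in 6, 4 and 4 of the 12 fits with 1 library left out. The highest adjusted p in these fits were 0.0874, 0.0679 and 0.0725 (limma).

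CNGA2, a cyclic nucleotide-gated channel of olfactory neurons in mammals, was at 6.29, 3.11 and 2.98 FPKM in double mutants and 0.806, 0.823 and 1.03 FPKM in WT (log2 change 1.67). The histone H3 gene hist2h3c was at 1.9, 3.52 and 2.63 FPKM in double mutants and 0.73, 0.54 and 0.669 FPKM in WT (log2 change 1.44), and histone copies share reads. FAIM2, an inhibitor of Fas-mediated cell death in mammals, FAAH2, a fatty acid amide hydrolase, and urgcp rose by 1.43, 1.33 and 1.64. These 3 genes were at or below 10.6 FPKM in every double mutant library. Calls of FAIM2, FAAH2 and urgcp were lost in 5, 7 and 10 of the 12 fits with 1 library left out, up to adjusted p = 0.106, 0.106 and 0.209, and those of CNGA2 and hist2h3c in 3 and 2.

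**Figure D3:**
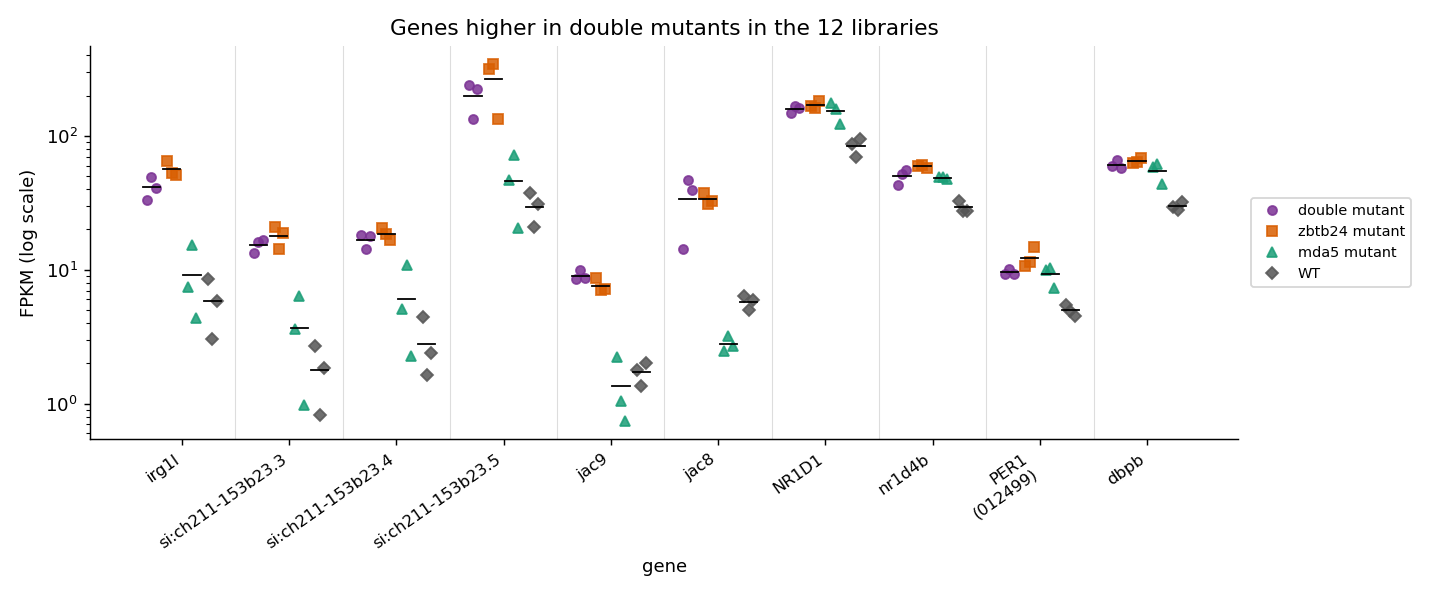
FPKM on a log axis of irg1l and its 3 neighbours, 2 jacalin-like genes and 4 circadian clock genes, with each library as a point and the genotype mean as a bar, in the order double mutant, zbtb24 mutant, mda5 mutant and WT. Double mutant points lie above WT points at all 10 genes. At NR1D1 they run from 148 to 167 FPKM, against 69.0 to 94.2 FPKM in WT.

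Clock genes formed the other group with several rises. Circadian clocks run on a loop in which period and cryptochrome proteins repress their own activators, and Rev-erb nuclear receptors and PAR bZIP factors form linked loops. Of 36 clock genes tested, 4 rose, 0 fell and 32 did not pass, and their median change was 0.33. For all features the median was 0.0033, and 0.153% passed as higher. The Rev-erb gene NR1D1 (ENSDARG00000033160) stood at 148, 167 and 162 FPKM in double mutants, against 87.5, 69 and 94.2 FPKM in WT (log2 change 0.93, SE 0.15, adjusted p = 0.0346). The PAR bZIP gene dbpb (ENSDARG00000057652) stood at 59.13, 66.5 and 57.9 FPKM in double mutants, against 29.4, 28 and 32.2 FPKM in WT (log2 change 1.02, SE 0.13, adjusted p = 0.0115). It alone of the 4 passed with any 1 library left out.

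The receptor gene nr1d4b was at 43.2, 51.9 and 55.9 FPKM in double mutants and 32.6, 27.7 and 27.55 FPKM in WT (adjusted p = 0.0185). The period gene PER1 (ENSDARG00000012499) was at 9.37, 10.2 and 9.35 FPKM in double mutants and 5.44, 4.96 and 4.53 FPKM in WT (adjusted p = 0.0424). Its other copy (ENSDARG00000056885), at 7.41, 10.7 and 4.76 FPKM in double mutants and 3.32, 2.67 and 3.04 FPKM in WT, did not pass (adjusted p = 0.175). The activator gene BMAL1 (ENSDARG00000006791), at 10.3, 8.88 and 10.03 FPKM in double mutants and 11.9, 10.4 and 10.3 FPKM in WT, overlapped between the genotypes. The mda5 mutants were also above WT at these genes, with NR1D1 at 177, 159 and 123 FPKM and dbpb at 58.8, 61.2 and 43.4 FPKM, and double mutants against mda5 mutants gave adjusted p of 0.892 and 0.604. Over the 36 clock genes, zbtb24 mutants against WT had 15 higher, 0 lower and a median of 0.43. Of all features, 4.92% passed as higher there. In mda5 mutants against WT no clock gene passed, and the median was 0.19. The time of day at which larvae were collected was not part of the labels, and its part in these values was not tested.

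No interferon-stimulated gene passed in double mutants against WT. Of 47 tested, 37 had a change above 0 and 14 an unadjusted p under 0.05 (limma), all of the 14 higher, and the median was 0.34 on the log2 scale, beside 0.0033 for all features. In 16 of the 47 (beside 9.27% of all features) every double mutant library was above every WT library. With zbtb24 replicate 1 left out, mxf passed (adjusted p = 0.0132), and with zbtb24 replicate 2 left out, mxc did (adjusted p = 0.0439). The mda5 mutants, against the same WT libraries, had 36 of the 47 above 0 and a median of 0.16. Double mutants against mda5 mutants had 32 of the 47 above 0 and a median of 0.18. No gene of the list passed in either comparison.

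IRF7 (ENSDARG00000045661), the transcription factor that amplifies interferon induction, stood at 15.4, 11.7 and 8.79 FPKM in double mutants, against 7.44, 7.38 and 6.52 FPKM in WT, a log2 change of 0.68 (SE 0.23, adjusted p = 0.283). In zbtb24 mutants it stood at 22.3, 36.3 and 34.4 FPKM, so that each double mutant library lay between the WT libraries and the zbtb24 libraries. The antiviral GTPase gene mxe stood at 1.2, 1.19 and 0.454 FPKM in double mutants, 3.32, 6.27 and 4.9 FPKM in zbtb24 mutants and 0.22, 0.501 and 0.383 FPKM in WT. The 3 double mutant values of mxe overlapped those of WT at their lowest.

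Over the list, zbtb24 mutants against WT had 19 of 47 genes higher, 0 lower and a median of 0.93, where 4.92% of all features passed as higher and 6.65% as lower. Double mutants against zbtb24 mutants had a median of -0.49 with 22 of 47 lower at an unadjusted p under 0.05, beside 3109 of 21623 features in either direction, and none after adjustment (limma), the adjusted p being 0.109 for mxe and 0.27 for IRF7. In that comparison 1 feature of 21623 passed (0.00462%). The interaction, which tests whether the zbtb24 change differs with the mda5 genotype, passed for 0 features after adjustment, with 5434 at an unadjusted p under 0.05, among them 25 of the 87 and 17 of the 47 interferon-stimulated genes. The largest changes on the list in double mutants against WT were those of ifit15 (-1.40, adjusted p = 0.56) and mxc (1.31, adjusted p = 0.0546), neither past the threshold.

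The gene il22ra2 (ENSDARG00000039439), which encodes a soluble receptor that binds the cytokine IL-22, rose in double mutants. Its levels were 4.11, 3.49 and 2.72 FPKM in double mutants and 1.47, 0.946 and 0.838 FPKM in WT, a log2 change of 1.32 (SE 0.24, adjusted p = 0.0488). The call was lost in 11 of the 12 fits with 1 library left out. Of 20 inflammatory genes tested, il22ra2 and irg1l rose and 18 did not pass, beside 0.153% of all features that passed as higher. On this list 7 genes had an unadjusted p under 0.05 (limma), 4 of them higher and 3 lower, beside 2511 of 21623 features. Changes ran from -3.07 to 2.81, with 13 above 0 and 7 below, and the median was 0.19. STAT4 (ENSDARG00000028731), a transducer of interleukin-12 signals named after its values were seen, was at 14.5, 14.5 and 13.7 FPKM in double mutants and 8.5, 4.77 and 5.3 FPKM in WT (adjusted p = 0.0271), and its call was lost in 8 of these 12 fits (up to adjusted p = 0.141). Of 15 genes of RNA and DNA sensing, none passed and 3 had an unadjusted p under 0.05, and the largest change was that of the kinase gene pkz (0.56, adjusted p = 0.369).

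**Figure D4:**
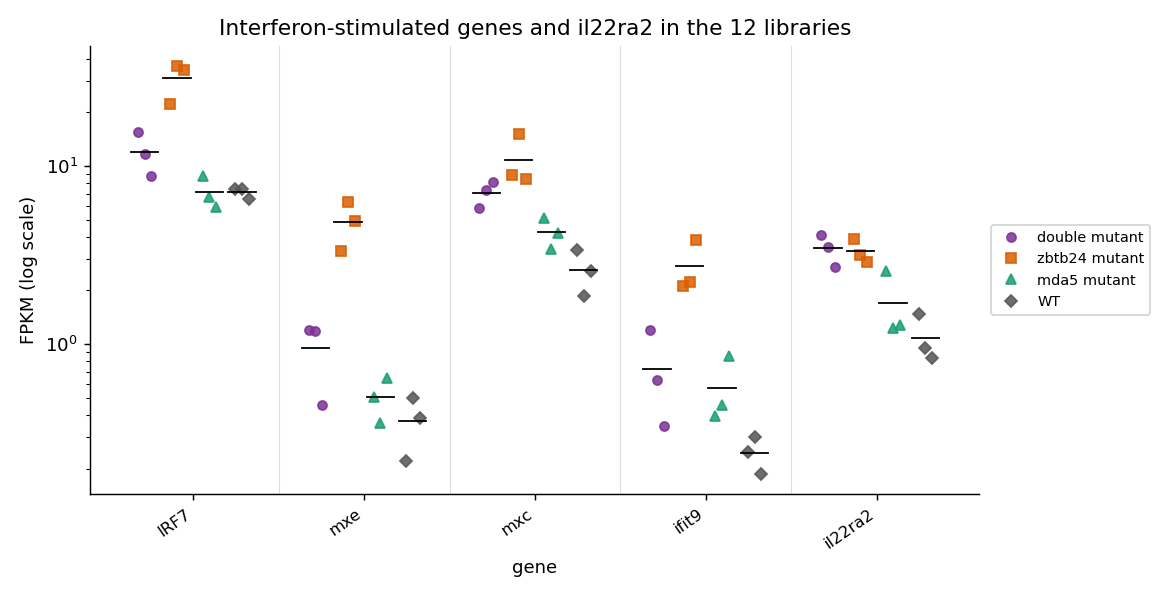
FPKM on a log axis of 4 interferon-stimulated genes and il22ra2, with each library as a point and the genotype mean as a bar, in the order double mutant, zbtb24 mutant, mda5 mutant and WT. Double mutant points of IRF7 run from 8.79 to 15.4 FPKM, below the zbtb24 mutant points that start at 22.3 FPKM and above the WT points that end at 7.44 FPKM.

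**Figure D5:**
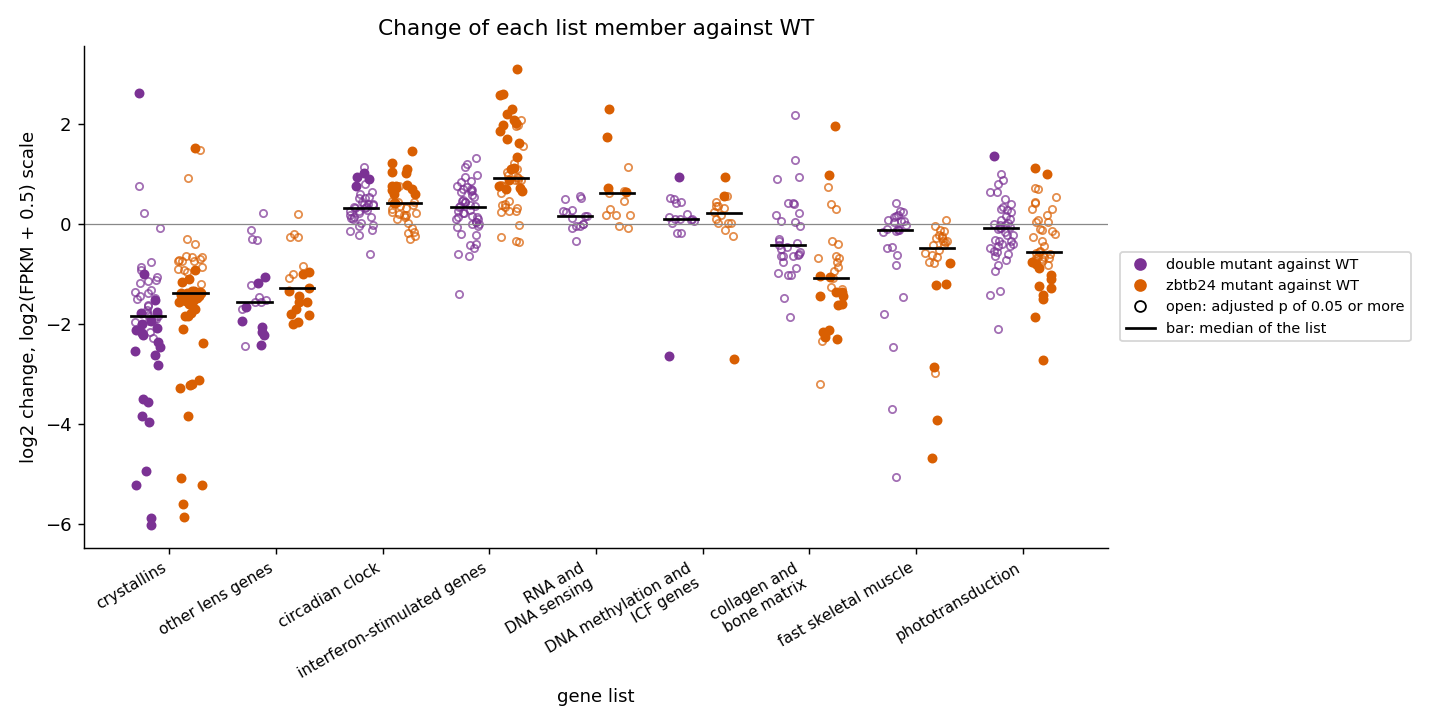
Log2 change on the log2(FPKM + 0.5) scale of the members of 9 gene lists, for double mutants against WT beside zbtb24 mutants against WT, which share their WT libraries. Filled points passed the test, open points did not and bars are medians. Crystallins have medians of -1.83 and -1.38, and interferon-stimulated genes medians of 0.34 and 0.93.

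Further genes that fell were named after their values were seen. The neighbours spink2.2 and spink2.7, of the Kazal-type protease inhibitor family, fell by 1.90 and 2.39 on the log2 scale. The calcium buffer gene pvalb5 was at 12.2, 12.2 and 15.5 FPKM in double mutants and 42.3, 29.7 and 41.9 FPKM in WT, a log2 change of -1.47 (adjusted p = 0.00281), while no gene of the 26 fast muscle genes tested passed. EOMES, a T-box transcription factor, was at 3.4, 3.15 and 2.5 FPKM in double mutants and 6.48, 5.41 and 5.86 FPKM in WT (adjusted p = 0.0255). PKP1, a desmosome protein of epidermis, was at 4.07, 3.48 and 3.3 FPKM in double mutants and 5.62, 7.24 and 7.65 FPKM in WT, with mda5 mutants at 3.2, 4.12 and 3.14 FPKM. The calls of spink2.7, EOMES and PKP1 were lost in 9, 5 and 10 of the 12 fits with 1 library left out, and those of spink2.2 and pvalb5 in none of the 12.

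A feature with no symbol, named after its values were seen, separated the mda5 genotypes. ENSDARG00000082123 was listed at 0 in all 3 double mutant and all 3 mda5 mutant libraries, against 2663, 2668 and 2459 FPKM in zbtb24 mutants and 7795, 3430.0 and 6814 FPKM in WT. No fold is given against libraries listed at 0. It was the 1 feature that passed in double mutants against zbtb24 mutants, and against WT it had the lowest adjusted p of the 87 (adjusted p = 3.47e-10) and kept its call with any 1 library left out and with the 6 compared libraries alone.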

How the data were processed

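Total RNA of pooled larvae was selected for polyadenylated transcripts and sequenced as stranded, paired libraries. The authors trimmed reads with Trimmomatic 0.33, mapped them with TopHat 2.1.1 to GRCz10 and estimated expression with Cufflinks 2.2.1. Values were deposited as FPKM, scaled across the 12 libraries by the authors with Cuffnorm, and there were 0 further columns of sample values. Depth is unknown from FPKM, so precision rests on the replicate spread, and a value of 0 is described as listed at 0.

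Features averaging 0.5 FPKM or more in the 12 libraries (21623 of 32271) were tested as log2(FPKM + 0.5) with limma 3.58.1 in R 4.3.3, with a mean-variance trend, 4 genotype means and 8 residual degrees of freedom. Tests were two-sided, with Benjamini-Hochberg adjustment over all features.

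A gene table gave symbols, in its own case, for 26418 features. A total of 1633 symbols belong to more than 1 feature, and identifiers are then given. Of 748 listed symbols 693 were matched, 133 of them without the copy suffix. Genes named are the 15 highest and 15 lowest changes that passed among features with a symbol, ZBTB24, IFIH1, list members that passed and, in lists where none passed, the 2 largest changes. Others were named after their values were seen, and a few genes that meet the rule are not reported here. The members and lists were chosen with earlier results of these data known. Alternatives were the pseudocount, filter, scaling, trend, a replicate block, the libraries in the fit and leaving out each library.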

Additional observations from a re-analysis of the deposited data

How the results depend on the processing

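In double mutants against WT, 87 features passed, and the pseudocounts, filters, scalings, eBayes without the trend and a 2-fold minimum gave 69 to 97. Only the compared libraries in the fit gave 9. Leaving out 1 library gave 25 (without WT replicate 3) to 123 (without zbtb24 replicate 3), and 21 of the 87 passed in each of these 12 fits. The sign of the log2 change was followed for 37 genes (the 15 highest and 15 lowest, ZBTB24, IFIH1, NR1D1, nr1d4b, PER1, dbpb and il22ra2) and was kept in each alternative run. Replicate numbers did not pair the samples (correlations of deviations 0.0077, 0.031 and -0.12), and the replicate block gave 46. In double mutants against mda5 mutants, 29 passed, 3 with only the compared libraries and 13 to 34 with 1 library left out. Against zbtb24 mutants 1 passed, with 2 under a pseudocount of 1, under quantile normalization and with only the compared libraries, and 1 to 5 with 1 library left out. For the interaction 0 passed, and 0 to 2161 with 1 library left out, the highest without WT replicate 2. In zbtb24 mutants against WT, whose counts are given beside those of the double mutants, 2502 passed. With 1 library left out it was 245 (without WT replicate 3) to 3477 (without WT replicate 2). The list counts of that comparison were not followed through these fits. The causes were not tested. Depth is unknown, so FPKM under 1 cannot be given a counting error.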

Other observations

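The tissue and pathway lists of which no member passed the test in double mutants against WT (limma) are described by their largest changes. Of 24 skin keratin genes tested, 8 had an unadjusted p under 0.05 (beside 2511 of 21623 features), 5 of them higher, and the epidermal keratin gene cyt1 was at 334, 359 and 445 FPKM in double mutants, against 86.3, 59.5 and 95.5 FPKM in WT (log2 change 2.25, adjusted p = 0.0522). Of 43 liver genes, 8 had such a p, 6 of them lower, and the median was -0.01. The largest change was that of hpxa, the gene of the haem carrier hemopexin, at 20.7, 12.6 and 4.18 FPKM in double mutants, against 40.6, 139.7 and 43.7 FPKM in WT (log2 change -2.54, adjusted p = 0.27). The lipoprotein gene apoa1a was at 1213, 1413 and 1183 FPKM in double mutants, against 484, 529 and 279 FPKM in WT (log2 change 1.61, adjusted p = 0.0748). Of 31 collagen and bone matrix genes, 5 had such a p, 4 of them higher, while 20 of the 31 changes were below 0 and the median was -0.42. The fin fold gene and3 was at 25, 31.6 and 47.3 FPKM in double mutants, against 13, 3.51 and 7.1 FPKM in WT (log2 change 2.19, adjusted p = 0.0986). In cyt1, apoa1a and and3 every double mutant library was above every WT library, and in hpxa every one was below. Such separation held for 9.27% of all features above WT and 9.32% below it. The second largest changes of the keratin and collagen lists were those of krt95 (-1.32, adjusted p = 0.209) and COL10A1 (-1.85, adjusted p = 0.292).

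Of 18 red cell genes, 8 had an unadjusted p under 0.05, 7 of them lower. The globin gene hbaa1 was at 156, 6.75 and 2.88 FPKM in double mutants, against 321, 671 and 689 FPKM in WT (log2 change -5.08, SE 1.53, adjusted p = 0.234), with double mutant replicate 1 above the other two. The embryonic-type globin gene hbae5 overlapped between the genotypes (log2 change -2.82). Of 26 fast muscle genes, 5 had such a p, and the myosin gene myha was at 18.7, 15.4 and 5.41 FPKM in double mutants, against 72.5, 298 and 179 FPKM in WT (log2 change -3.69, adjusted p = 0.132). The actin gene actc1b (ENSDARG00000099197) was listed at 0 in 9 of the 12 libraries, among them all 3 double mutants, so its values say little.

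Of 33 DNA replication and mitosis genes, 7 had an unadjusted p under 0.05, all higher, and the median was 0.15. RRM2, a subunit of ribonucleotide reductase, had a pair of features. The first (ENSDARG00000078069) was at 0, 0.0842 and 4.31 FPKM in double mutants, against 3.64, 3.67 and 3.65 FPKM in WT, with double mutant replicate 3 at the WT level and the others near 0. The second (ENSDARG00000020711) was at 7.37, 11 and 4.53 FPKM in double mutants, against 3.33, 3.63 and 4.22 FPKM in WT (adjusted p = 0.439), and how fragments were divided between the copies is not known.

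In the digestive and endocrine lists, 7 of 30 pancreas genes had an unadjusted p under 0.05 (limma), all higher, beside 2511 of 21623 features. Of 15 genes of glucose hormones and gluconeogenesis 1 had such a p, lower, and of 19 of the growth axis 3, all lower. For cholesterol synthesis it was 0 of 25. Among the largest changes of these lists were those of SYCN (1.48), g6pc1a.1 (-0.97) and G6PC1 (0.44), gh1 (-1.39) and igfbp6b (-0.70), and HSD17B7 (-0.43). Growth hormone gene gh1 overlapped, with 0.784, 2.37 and 4.86 FPKM in double mutants and 10.2, 7.18 and 3.77 FPKM in WT. In the nervous system list 5 of 40 had such a p, all lower, with mbpa, a myelin protein gene, at 218, 202 and 334 FPKM in double mutants and 351, 501 and 425 FPKM in WT (adjusted p = 0.298).

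In the stress and blood cell lists, 5 of 30 chaperone genes, 2 of 27 immediate early genes, 2 of 18 p53 genes, 2 of 18 neutrophil and macrophage genes and 1 of 13 lymphocyte genes had an unadjusted p under 0.05. The p53 target cdkn1a, an inhibitor of the cell cycle, was at 74, 87.3 and 87 FPKM in double mutants, against 60.9, 41.8 and 50.7 FPKM in WT (adjusted p = 0.199). The macrophage gene MPEG1 (ENSDARG00000043093) was at 29.97, 43.8 and 27.9 FPKM in double mutants, against 23.7, 16.2 and 17.7 FPKM in WT (adjusted p = 0.207). Both were apart in all libraries without passing, beside 9.27% of all features apart above WT. In the p53 list 3 genes were apart above WT and 3 below. In the neutrophil and macrophage list it was 4 above and 0 below. Changes of SERPINH1 (-1.26), hsp70l (0.64), EGR3 (-0.58), MYC (-0.48), GADD45A (-0.54), a second MPEG1 feature (0.49), cd8a (-0.78) and foxn1 (-0.69) were the others named by the rule.

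None of 13 heart, 11 germ cell, 25 pigment cell and 13 mitochondrial genome genes had an unadjusted p under 0.05. Their largest changes ran from -0.45 for TNNI1 to 0.88 for DDX4, with myl4 at -0.41, PIWIL1 at 0.70, pmelb at 0.72, DCT at 0.68, MT-ND3 at -0.22 and MT-ATP6 at -0.22. In the sensing list STING1 changed by 0.52 (adjusted p = 0.593). The 10 features listed for vitellogenins and zona proteins were all under the minimum level and were not tested.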
